A study of Drosophila melanogaster with 8 samples.

Results

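*Thor*, *Pk61C*, *GlyP*, *Pfrx*, *LpR2* and *CG10924* are 6 genes of *Drosophila melanogaster* that encode effectors of insulin signaling and proteins of fuel metabolism. They were chosen by name from lists of genes near regions with more dFOXO ChIP DNA than input DNA, with these lists and their enrichments already known. Of the 2801 genes in the lists, the *chico* list held all 6 and the list after IPC ablation held 2, *Thor* and *CG10924*. The comparison of ChIP with input DNA thus served to choose the genes, and its values are given here as a description, with no test. The flies were females aged 15 days of 2 long-lived genotypes. One was heterozygous for *chico1*, a mutation of the fly insulin receptor substrate, in a *y1; cn1; ry506* background that the wildtype stock also carries. The other had insulin-producing cells (IPCs) of the brain partially ablated in adults, by feeding RU486 for 15 days to induce the cell death gene *reaper* (*UAS-rpr*) under *Dilp2-GS-Gal4*, a driver for these cells. Each genotype had 2 samples of whole-fly chromatin, each from 200 to 250 pooled females and each with ChIP DNA and input DNA, which gave 8 samples. Wildtype flies were not among them, and dFOXO binding in tissues cannot be told apart in whole flies.

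Insulin signaling runs from the insulin receptor through phosphoinositide 3-kinase to PDK1 and Akt, and Akt phosphorylates dFOXO and keeps it out of the nucleus. When insulin signaling is low, dFOXO enters the nucleus and binds DNA, and *Thor* is one of its best known targets in flies. Low insulin signaling also goes with the use of stored fuel, in which glycogen is broken down, lipids travel between tissues as lipophorin, and new glucose precursors are made from amino acids. Among the 6 genes, *Pk61C* (PDK1) stands upstream of dFOXO, *Thor* (4E-BP) acts on translation, *GlyP* and *Pfrx* act on glycogen and glycolysis, *LpR2* on lipid uptake and *CG10924*, a PEPCK-like gene, on gluconeogenesis.

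Binding at *Thor*, *Pk61C* and *GlyP* was also followed by ChIP-PCR, and the primers are shown because they mark the DNA in which binding was tested at each of them. All 6 primers are 24 nt long and none carries capitals, since no motif was searched in them.
*Thor* (2L) forward primer: gattggcgtttagtgctgttggct
*Thor* (2L) reverse primer: gcttctcgccttgagctcttgttt
*Pk61C* (3L) forward primer: tcaaagtctcgcccgaccatagtt
*Pk61C* (3L) reverse primer: tatgggtgtgtgtgtgtgcgtagt
*GlyP* (2L) forward primer: ttcaggttcaggtctgggttgtgt
*GlyP* (2L) reverse primer: tagttctctgattccgttgcgtgg
Their positions inside the enriched regions were not determined here. The genes with primers were in the middle of the order by *chico* enrichment, with *LpR2* and *Pfrx* above them and *CG10924* after them.

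Replicates had been merged before regions were called, so that each region had 1 number of ChIP tags and 1 number of input tags, which the authors scaled to the ChIP library, and the enrichment is their ratio. No spread between replicates can be given. Intervals below are 95% exact (Clopper-Pearson) intervals of the ChIP share of the tags, written as ratios, and they cover counting error only. The 1331 *chico* regions were at a median enrichment of 1.103 and a median width of 1395 bp, and the 763 IPC regions were at 1.02 and 6569 bp. Coordinates are those of the lists, whose genome build is not given in the sources used here. In the *chico* regions of the 6 genes, the depth was between 475 and 909 ChIP tags, against 288 to 836 scaled input tags.

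In *chico* flies dFOXO enrichment was between 1.09 and 1.65 at the 6 genes, with *LpR2* and *Pfrx* at the upper end and *CG10924* at the lower end. An enrichment of at least 1.2 was found at 5 of the 6 genes, all but *CG10924*, and at 75 of all 1331 *chico* regions (5.63%). The genes were chosen from this same comparison, so nothing is read from that difference. The median over the 6 genes was 1.30, and the lower bound of the interval was above 1 at 5 of them. The share of all *chico* regions with such a bound is not given here, so nothing is read from this count either. Neighbours in the order *LpR2*, *Pfrx*, *Pk61C*, *Thor*, *GlyP* and *CG10924* had counting intervals that overlapped. Farther apart in the order, the interval of *LpR2* lay above those of *Thor*, *GlyP* and *CG10924*. Those of *Pfrx* and *Pk61C* lay above that of *CG10924*. Differences among the 6 genes were not tested. With input tags raised by 5%, 3 genes were left at 1.2 or above, since *Thor* was then at 1.196 and *GlyP* at 1.189. The count over all regions under this change is not given here.

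**Figure D1:**
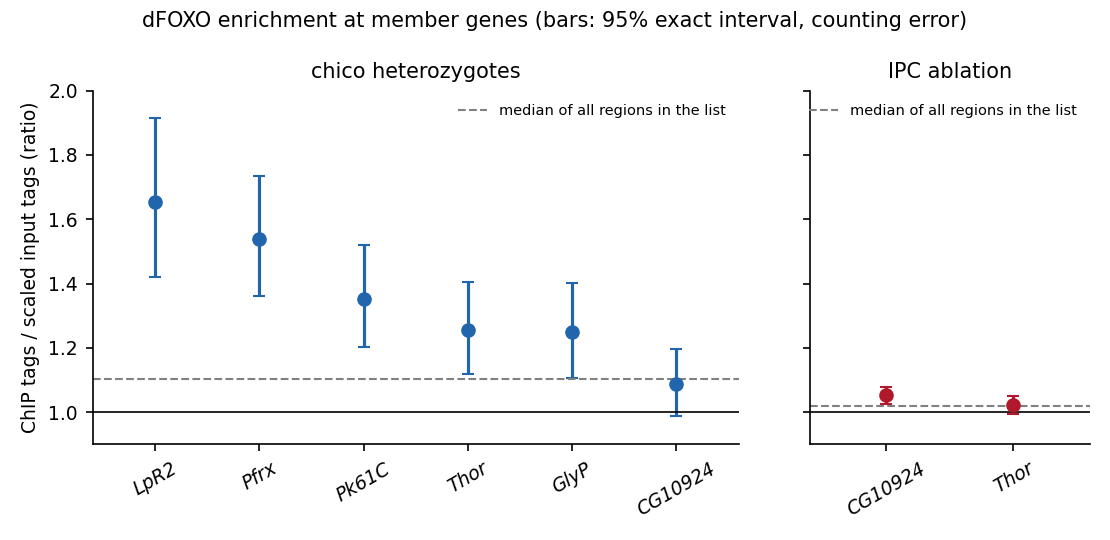
The ratio of ChIP tags to scaled input tags is plotted for the 6 genes in *chico* heterozygotes and the 2 listed after IPC ablation. Points are pooled libraries, bars are 95% exact intervals (counting error only) and dashed lines are the medians of all regions, 1.103 and 1.02, with 5 *chico* genes above theirs and *CG10924* below.

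Translation and insulin signaling were represented by *Thor* and *Pk61C*. *Thor* encodes 4E-BP, which binds the cap-binding factor eIF4E and restrains translation when insulin and TOR signaling are low. Its *chico* region (FBgn0022073; chr2L:3477793-3478824) had 695 ChIP tags beside 554 scaled input tags, which gave an enrichment of 1.26 (1.12 to 1.41) and rank 39 of 1331. *Thor* is a short gene of 1179 bp (2L, 3478434 to 3479612), and the region spanned its 5' end, from position -641 to 390 bp relative to it. It covered 33.2% of the gene. The *Thor* region was dense in reads of any kind, with 673 ChIP tags and 537 scaled input tags per kb. Input density was lower in 95.9% of all *chico* regions. *Pfrx* shared this trait, with 536 scaled input tags per kb and a lower density in 95.7% of regions.

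*Pk61C* encodes PDK1, the kinase that phosphorylates Akt in its activation loop. The *chico* region (FBgn0020386; chr3L:130884-132128) counted 688 ChIP tags against 509 scaled input tags, so its enrichment was 1.35 (interval 1.204 to 1.52) and its rank 26. It lay wholly inside the gene (3L, 129452 to 145305), from 1432 to 2676 bp downstream of the 5' end. Its input density, 409 scaled tags per kb, was the lowest of the 6 genes, against 553 ChIP tags per kb. Of the 6 genes, *Pk61C* also lay on the arm with the largest input factor in *chico*, the number by which the authors multiplied input tags (0.881 on 3L). With the median factor of all arms, 0.853, its enrichment was 1.40 instead of 1.35.

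Carbohydrate metabolism was represented by *GlyP* and *Pfrx*. *GlyP* encodes glycogen phosphorylase, which releases glucose phosphate from glycogen. The *chico* region (FBgn0004507; chr2L:2130247-2131308) had 638 ChIP tags beside 512 scaled input tags, and with an enrichment of 1.25 (interval 1.11 to 1.40) it took rank 42. As at *Thor*, the region spanned the 5' end, from position -568 to 493 bp relative to the start of the gene (2L, 2130815 to 2137296). It was also listed for *CG4259*, which lies on the opposite strand, with its 5' end 1566 bp from the centre of the region. The 2 genes are divergent, and position alone does not assign the region to *GlyP* only.

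*Pfrx* encodes the bifunctional enzyme that makes and removes the allosteric activator of phosphofructokinase and so sets the rate of glycolysis against gluconeogenesis. The *chico* region (FBgn0027621; chrX:19391875-19392698) counted 679 ChIP tags against 442 scaled input tags and ranked 14, with an enrichment of 1.54 (interval 1.36 to 1.74). It had the most excess tags of the 6 genes (237) and the highest density of ChIP tags, 824 per kb, against 536 scaled input tags per kb. The region was narrow (824 bp, narrower than all but 24 of the *chico* regions) and lay inside the gene (X, 19389538 to 19403390), from 2337 to 3160 bp downstream of the listed 5' end. The list gives 1 start and end per gene, so that start sites of shorter transcripts inside *Pfrx* or *Pk61C* were not considered.

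**Figure D2:**
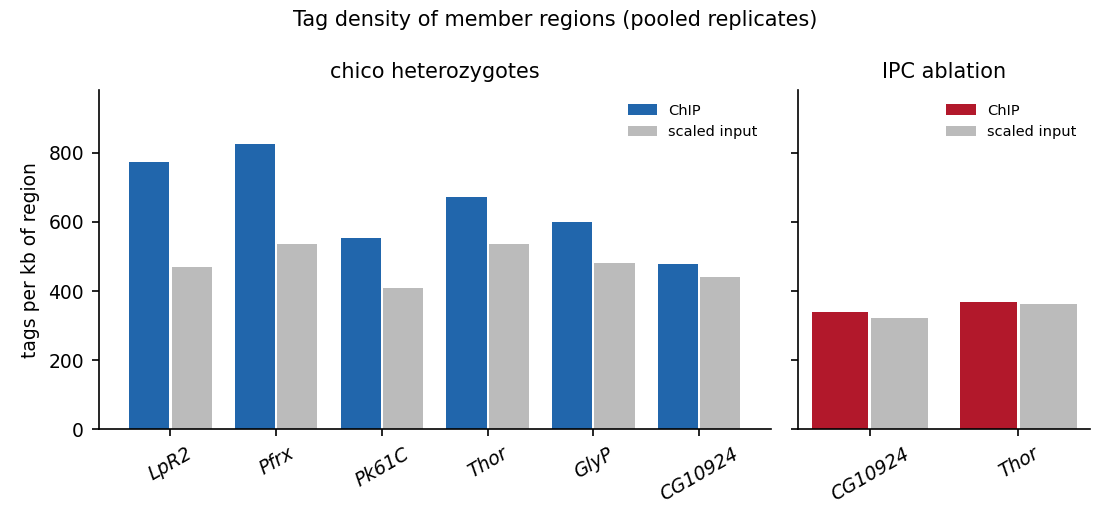
Tags per kb of region are plotted for each gene, with ChIP tags as coloured bars and scaled input tags as grey bars, in *chico* heterozygotes (478 to 824 ChIP tags and 409 to 537 input tags per kb) and after IPC ablation (340 to 369 and 323 to 361). Bars are pooled libraries without replicate error, and the gap between the bars is widest at *Pfrx* and *LpR2*.

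*LpR2*, a receptor of the LDL receptor family that takes up lipophorin, the main lipid carrier of fly haemolymph, had the largest enrichment of the 6 genes. The *chico* region (FBgn0051092; chr3R:21565895-21566508) had 475 ChIP tags beside 288 scaled input tags, and its enrichment of 1.65 (interval 1.42 to 1.92) ranked 10. It was the narrowest region of the 6 (614 bp), with only 7 of all *chico* regions narrower. Its centre lay 14 bp upstream of the listed 5' end of the gene (3R, 21524488 to 21566187, on the minus strand), and 293 bp of it lay within the gene, which is 41700 bp long. The excess per kb, 305 tags, was the highest of the 6 genes, followed by 288 at *Pfrx*, 144 at *Pk61C*, 137 at *Thor*, 119 at *GlyP* and 38.4 at *CG10924*.

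*CG10924* encodes a protein like phosphoenolpyruvate carboxykinase, the enzyme that commits carbon to gluconeogenesis, and is named *Pepck2* in the Release 6 gene table. Its *chico* region (FBgn0034356; 2R, 14407992 to 14409892) counted 909 ChIP tags against 836 scaled input tags, for an enrichment of 1.09 and rank 907 of 1331. The interval of counting error was 0.989 to 1.196 and included 1, although the region had passed the FDR of the authors' list. The intervals of its neighbours in rank, *hoe1* and *cib*, also included 1. Among the 15 other genes of these pathways in the *chico* list, described below, the lower bound was above 1 for only 5. An interval that included 1 therefore did not set the *CG10924* region apart from these, and the share over all *chico* regions is not given here. The region did not touch the gene (2R, 14414937 to 14423263) and had its centre 5995 bp upstream. It lay inside another gene, *CG42510*, to which the list also assigns it. It was between the median of the *chico* list (1.103) and its lowest value (1.07), with 31.9% of regions below it.

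**Figure D3:**
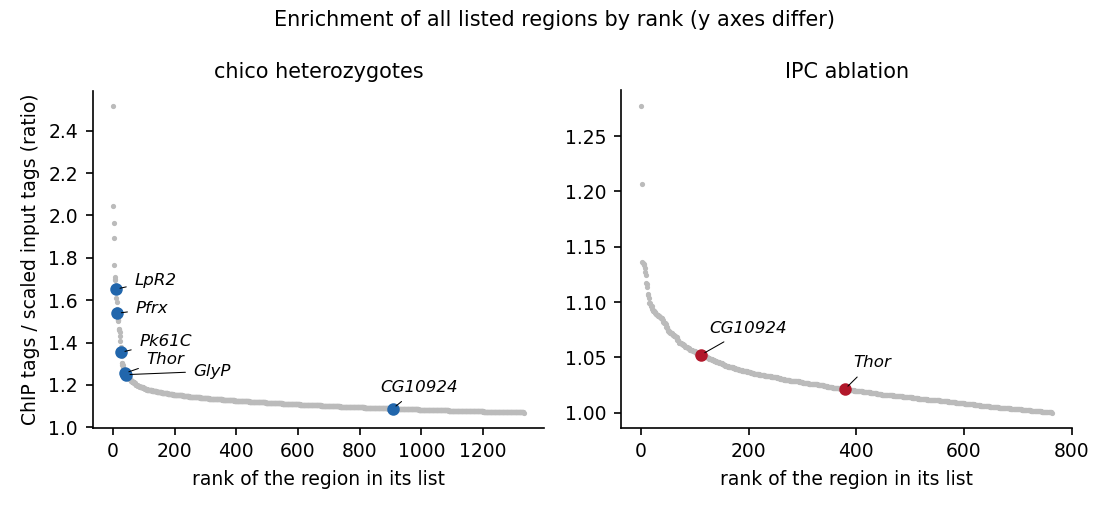
Enrichment (ratio, linear axes with different ranges) is plotted against rank for all 1331 *chico* regions and all 763 regions after IPC ablation (grey), with the regions of the 6 genes coloured. In *chico*, 5 genes lie between ranks 10 and 42, on the steep part of the curve, and *CG10924* lies at rank 907; after IPC ablation *CG10924* is at rank 112 and *Thor* at 379.

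The position of a region relative to the gene was not a criterion of the choice, but the lists that give it were already known. The shares over all regions given here are not matched for enrichment, and differences from them were not tested. The authors' list places 5 of the 6 *chico* regions inside the 5' side of the gene, a label that 45.6% of all *chico* regions carry for their first gene. At *LpR2*, *GlyP* and *Thor* the region contained the 5' end itself, with the centre 14, 38 and 126 bp upstream of it, whereas 329 of the 1331 *chico* regions (24.7%) contained the 5' end of a listed gene. The median distance of a *chico* centre to the nearest listed 5' end was 1555 bp, and only 43 regions had a centre as near to a 5' end as at *Thor*. At *Pk61C* and *Pfrx* the centre lay 2054 and 2748 bp inside the gene. *LpR2* had both the nearest centre and the largest enrichment of the 6 genes, and *CG10924* had both the farthest centre and the smallest. Between them, *GlyP* and *Thor* had nearer centres and smaller enrichments than *Pk61C* and *Pfrx*.

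**Figure D4:**
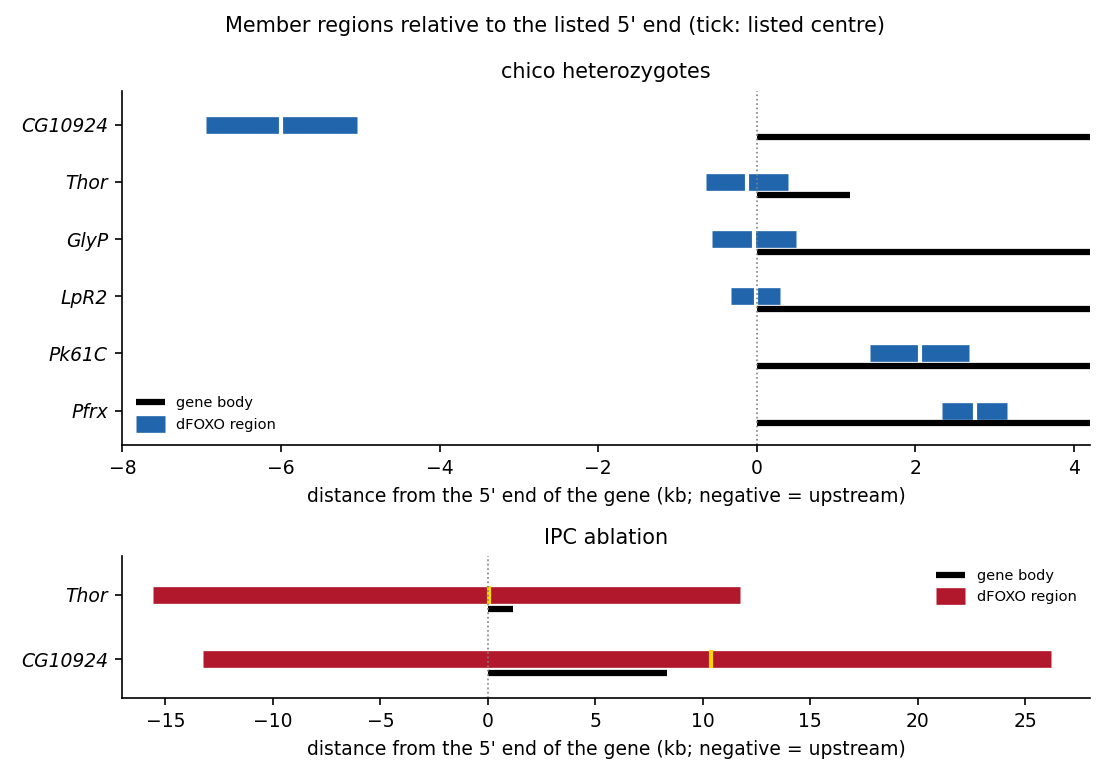
Regions (coloured bars, with a tick at the listed centre) and gene bodies (black, cut at the right edge where longer) are drawn to scale against the distance in kb from the listed 5' end, upstream to the left. In *chico*, 3 regions span the 5' end, those of *Pk61C* and *Pfrx* lie inside the gene and that of *CG10924* ends 5045 bp upstream; after IPC ablation both regions cover the whole gene, with the centre 62 bp inside *Thor* and beyond the 3' end of *CG10924*.

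After IPC ablation the regions of *Thor* and *CG10924* were among the widest of the list and their enrichment was small. Of the 2 listed genes 0 had an enrichment of at least 1.2, a level that 2 of all 763 regions (0.262%) reached. At *Thor* the region (chr2L:3462874-3490142) was 27269 bp wide and had 10065 ChIP tags beside 9855 scaled input tags, which gave an enrichment of 1.02 (interval 0.993 to 1.05). It was also listed for *CG15414*. The *chico* region of *Thor* lay inside it and made up 3.78% of its width. Although the region was wide, its listed centre was 62 bp inside *Thor* and 188 bp from the *chico* centre. A centre as near to a *chico* centre was found at 23 of the 763 IPC regions. All 23 were among the 81 that intersect *chico* regions, as the one at *Thor* does, so the share among such regions is 23 of 81. The midpoint of the region was at -1926 bp, and how the authors placed the listed centre is not given in the sources used here.

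At *CG10924* the IPC region (2R, 14401669 to 14441149) was 39481 bp wide, with 13409 ChIP tags and 12742 scaled input tags. The enrichment was 1.05 (interval 1.03 to 1.08), and the excess of 667 tags corresponds to 16.9 tags per kb. The same region was listed for *Pepck* (*Pepck1*), the neighbouring phosphoenolpyruvate carboxykinase gene, and for *Rgk2*. Its listed centre was 2038 bp past the 3' end of *CG10924* and inside *Pepck*, 1029 bp from the 5' end of that gene. The *chico* region lay within the IPC region, with the centres 16359 bp apart. The enrichment depended on the input factor, which on 2R was the lowest of all arms after IPC ablation (0.678, against a median of 0.706). With the median factor, the enrichment was 1.01 (interval 0.986 to 1.04). Enrichments at *Thor* and *CG10924* were not tested between genotypes, since widths and input factors differ between the lists.

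The IPC list held no entry for *Pk61C*, *GlyP*, *Pfrx* or *LpR2*, and no IPC region overlapped these genes. The nearest IPC region was 29.9 kb from the *chico* region at *GlyP* (listed for *dpr3*), 93.5 kb away at *Pfrx* (*kek5*), 771 kb away at *Pk61C* (*CG13905*) and 2302 kb away at *LpR2* (*CG34362*). The IPC list has 20 regions on the whole of 3R, the arm of *LpR2*. Tag numbers at these 4 genes after IPC ablation were not analysed here, so that an enrichment cannot be called absent. By ChIP-PCR, the paper reports dFOXO enrichment over wildtype at *Pk61C* and *GlyP* in IPC-ablated flies.

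Among the 253 genes in both lists, those with enrichments most like *Thor* were *CG14521* (1.26 in *chico* and 1.01 after IPC ablation), *CG6424* (1.24 and 1.03) and *Vsx1* (1.24 and 1.01). Likeness was the Euclidean distance in log2 enrichment over the 2 lists, at 0.0166, 0.0222 and 0.0251. For *CG10924* they were *CG11961* (1.09 and 1.05), *CG9380* (1.09 and 1.05) and *Dh31* (1.08 and 1.05). In order of *chico* enrichment, *LpR2* stood between *CG9932* (1.67) and *puc* (1.61), *Pfrx* between *CG15684* (1.56) and *CG32700* (1.51) and *Pk61C* between *bnl* (1.38) and *h* (1.34). *Thor* followed *slou* (1.26) and preceded *CG34383* (1.25), and *GlyP* stood between *CG15894* (1.25) and *Rim* (1.24). *CG10924* shared an enrichment of 1.09 with *hoe1* and *cib*. After IPC ablation *CG10924* stood between *Syt7* and *sli* (1.05 each), and *Thor* between *CG31647* and *nAcRalpha-34E* (1.02 each). All these neighbours had intervals that overlapped those of the member beside them.

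Other genes of the same pathways were taken from 9 lists of 105 genes, written for insulin and TOR signaling, energy sensing, carbohydrate metabolism and lipid metabolism. Apart from the 6 genes, 15 of 99 (15.2%) were in the *chico* list, beside 14.2% of the 13962 protein-coding genes. None of the 15 had an enrichment of at least 1.2, a level that 97 protein-coding genes (0.695%) reached. Of all 105 pathway genes 5 reached it, and these 5 are among the 6 genes chosen with their enrichments known. The absence of others at this level therefore depends on that choice, and nothing is read from it. Their enrichments were between 1.07 and 1.13 with a median of 1.09. The lower bound was above 1 for 5 of them, *Lnk* (1.13), *raptor* (1.12), *Tpi* (1.12), *yl* (1.08) and *sgg* (1.07), which are named here after their values were seen. Without the share of all regions with such a bound, nothing is read from this count. After IPC ablation 2 of the 99 genes (2.02%) were listed, *Pfk* and *Pepck*, beside 6.78% of protein-coding genes. The 99 leave out the 6 genes, which were chosen because they are listed, and this lowers the shares. With the 6 genes, 21 of 105 were in the *chico* list and 4 of 105 in the IPC list. Differences from the shares over all genes were not tested, and nothing is read from them.

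By group in *chico*, 1 of 11 insulin-like peptides and their binding proteins was listed (*Ilp7*), as were 2 of the 11 others from the receptor to Akt, 3 of 13 in TOR signaling and translation and 1 of 11 in energy sensing. In metabolism, 0 of 11 other glycogen and trehalose genes, 2 of 13 glycolytic genes and 0 of 7 genes of gluconeogenesis and pyruvate were listed. Also listed were 3 of 6 other lipoprotein genes and 3 of 16 genes of lipid storage and breakdown. The share over all protein-coding genes was 14.2%. The groups are small and leave out the 6 genes, and nothing is read from differences among them. *Pfk*, which encodes the phosphofructokinase whose allosteric activator the *Pfrx* product makes and removes, was in both lists. Its enrichment was 1.11 in *chico* (interval 0.984 to 1.26, 556 ChIP and 500 scaled input tags) and 1.04 after IPC ablation (interval 0.944 to 1.15, 841 ChIP and 808 scaled input tags), and both intervals included 1. *LpR1*, the other lipophorin receptor, had an enrichment of 1.09 in *chico* (interval 0.981 to 1.22).

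**Figure D5:**
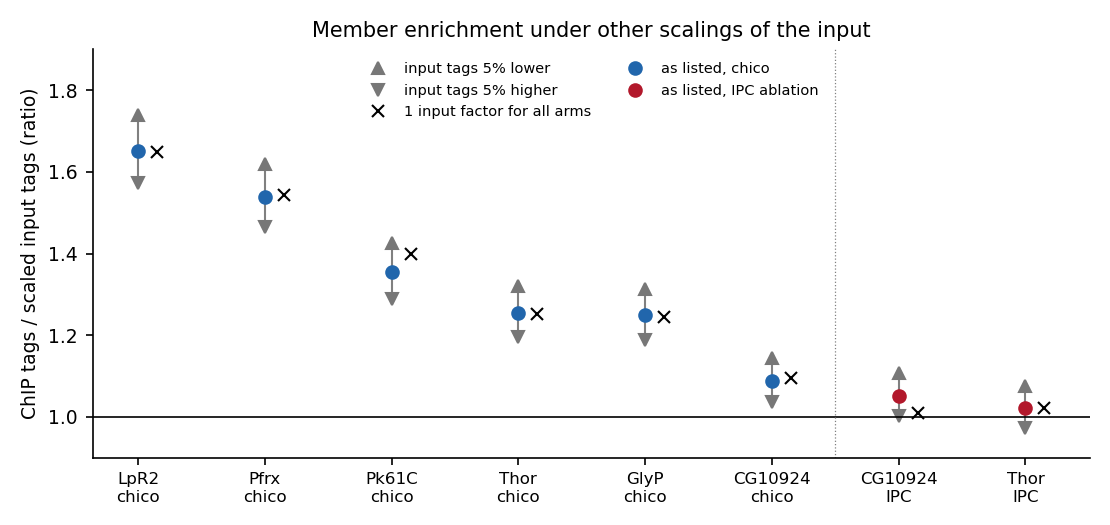
The ratio of ChIP tags to scaled input tags at each gene is plotted as listed (circles), with input tags 5% lower or higher (triangles) and with the median input factor of all arms (crosses). *LpR2* stayed between 1.57 and 1.74, while *Thor* after IPC ablation lay between 0.973 and 1.08 and *CG10924* after IPC ablation between 1.00 and 1.11.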

How the data were processed

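Chromatin of *chico* heterozygotes and IPC-ablated flies was precipitated with an anti-dFOXO antibody, and input DNA was taken before the precipitation. Per the submitters' processing notes, reads came from CASAVA 1.6 and were aligned with Bowtie; the genome build is not given in the sources used here. The authors merged the 2 replicates of each genotype and called regions with PeakSeq at an FDR of 0.01. The deposited ChIP tags are raw counts per region. The deposited input tags are a score, since the authors multiplied them by a factor and rounded them up. The authors also deposited a ratio, ChIP tags over scaled input, taken before rounding. Columns with the authors' p-values and peak heights were not used, and excess tags are ChIP tags minus scaled input tags.

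The lists were read as deposited, with each region counted once. Exact binomial intervals were computed from ChIP and scaled input tags. For each arm, an input factor was sought that makes every scaled input a whole number of tags. Pathway genes were matched by symbol or synonym through the Release 6 gene table (13962 protein-coding genes), to which 2019 *chico* genes and 984 IPC genes were matched. Members and pathway lists were chosen with earlier results of these data known. By rule, the text names the 6 genes, pathway genes in both lists or at an enrichment of at least 1.2, genes that share a region, the neighbours in rank and the 3 genes most like a member in both lists. *Ilp7*, *LpR1*, *Glut1* and the pathway genes with a lower bound above 1 were named outside it, after their values were seen. The code for intervals and factor recovery was run on tags simulated as independent Poisson counts, without variation between replicates. That run checks the code only, since the intervals assume the same counting error. Alternatives changed the input scaling and factor, the rounding, the interval, the thresholds and the matching. Values were computed in Python 3.11.15 with pandas 2.3.3, SciPy 1.17.1 and NumPy 2.4.6, and drawn with Matplotlib 3.10.9.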

Additional observations from a re-analysis of the deposited data

How the results depend on the processing

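With input tags lowered or raised by 5%, the enrichment after IPC ablation was 1.08 or 0.973 at *Thor* and 1.11 or 1.00 at *CG10924*, and with 1 factor for all arms it was 1.01 at *CG10924*. The 6 *chico* enrichments stayed within their intervals under these settings and with rounded input, Wilson intervals or unscaled input tags (added after the data were seen). The 5 *chico* genes at 1.2 or above became 3 with input raised by 5% and 2 at a limit of 1.5. Over all 1331 *chico* regions the limit of 1.5 fell between ranks 17 and 18. The count over all regions with input raised by 5% is not given here, and nothing is read from these changes. After IPC ablation the count of 0 became 1 (*CG10924*) where the lower bound of the interval had to be above 1. The share of all IPC regions with such a bound is not given here. Of the other pathway genes, 15 in *chico* and 2 after IPC ablation, 0 and 0 were left at an enrichment of 1.2, and 0 after IPC ablation as the first gene of a region. With centres within 5 kb as the criterion, 1 gene (*Thor*) in place of 2 had a common region. Measured to the midpoint, the IPC region lay at -1926 bp in place of 62 bp from the 5' end of *Thor* and at 6472 in place of 10364 bp at *CG10924*, and measured to the nearest edge the distance was 0 at *Thor*, *GlyP* and *LpR2* in *chico* and at both genes after IPC ablation. The search for forkhead motifs in promoters and the placing of the primers were not run, since no sequence was used here. No replicate could be left out. No paired analysis was possible because the region lists used here hold pooled replicates.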

Other observations

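Glucose uptake was not among the pathway lists, but *Glut1*, which encodes a glucose transporter, was in both lists and is named after its values were seen. Its *chico* region (FBgn0025593; chr3L:944405-945513) had 548 ChIP tags beside 499 scaled input tags, which gave an enrichment of 1.099 (interval 0.971 to 1.24). After IPC ablation a separate region inside the gene (chr3L:934782-939770) counted 1355 ChIP tags against 1295 scaled input tags, for an enrichment of 1.05 (interval 0.969 to 1.13). Both intervals included 1, and the centres lay 30885 and 25254 bp from the listed 5' end.

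The input tags before scaling, recovered with the factor of each arm, were 338 at *LpR2*, 516 at *Pfrx*, 577 at *Pk61C*, 601 at *GlyP*, 651 at *Thor* and 973 at *CG10924* in *chico*. At *Thor* and *CG10924* after IPC ablation they were 13958 and 18806.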
